A study of Mus musculus with 6 samples.

Results

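The genes described here are those known from red cells and reticulocytes, the enucleated cells that mature into red cells. They are globins, enzymes of haem synthesis, red cell membrane proteins, erythroid transcription factors and genes grouped under clearance of proteins and organelles. They were taken by gene symbol from a list of 39, of which 38 had a row among the 55481 genes of the table, each symbol with 1 row. Ahsp was not analysed here. The list was drawn up with the values of these same 4 libraries known, so its levels and group differences are a description and support nothing by themselves.

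Bulk polyA RNA was sequenced from isolated cells of skin squamous cell carcinomas of mice. The tumours were induced with DMBA, a carcinogen, and TPA, which promotes their growth. The Itga6hi CD80pos group, named tumour stem-like in the series text, carried CD80, a co-stimulatory ligand, and much Itga6, an integrin alpha chain. The Itga6low CD80neg group, named differentiated cancer cells there, had low Itga6 and no CD80. Each had 2 libraries, and all came from carcinomas of this kind. The remaining group of the labels, Itga6 high and CD80 negative, was not analysed here. The labels give no strain, sex, age or number of animals, and name no gate beyond Itga6 and CD80 and no lysis of red cells. Nothing shows that the replicates are separate animals, so the p-values behind each call measure only the spread between these libraries, which may be technical. Values are TPM, transcript levels per length scaled by the authors to a total of 1000000 in every library. TPM keep no record of depth, so the depth is unknown. At least 1 TPM was reached by 12661 and 12728 genes in Itga6hi CD80pos and by 11982 and 12443 in Itga6low CD80neg. The 11 keratinocyte markers summed to 65406 and 59256 TPM in Itga6hi CD80pos and to 2848 and 7887 TPM in Itga6low CD80neg. The 8 fibroblast markers summed to 8.44 and 9.16 TPM against 9037 and 5587 TPM, so the libraries of the second group were not of keratinocyte RNA alone.

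Red cells arise in bone marrow and spleen from dividing progenitors that depend on the receptors Kit and Epor and on the transcription factors Gata1, Tal1 and Klf1. Erythroblasts then make haem and globin, stop dividing and expel the nucleus, so the reticulocyte can make no new RNA and its remaining messages are lost as it matures. Adult haemoglobin joins alpha globin chains with beta globin chains, each of which carries a haem. In a tumour, red cells and reticulocytes circulate in its blood vessels.

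The promoters of the most abundant members are shown first, since each holds letters that erythroid factors are known to bind. The windows run from 250 bases before to 50 after the gene's start and come from RefSeq on GRCm38.p6, read 5′ to 3′ on the gene's strand. Hba-a1 (alpha globin) lies at chr11:32283422-32283721 on the plus strand, Hbb-bs and Hbb-bt (adult beta globins) at chr7:103827879-103828178 and chr7:103813874-103814173 on the minus strand, and Alas2 at chrX:150547167-150547466 on the plus strand. Capitals mark 2 motifs searched on both strands, GATAA, the core that GATA factors bind, and CCNCNCCC, the form of the CACCC box that Klf1 binds.
Hba-a1: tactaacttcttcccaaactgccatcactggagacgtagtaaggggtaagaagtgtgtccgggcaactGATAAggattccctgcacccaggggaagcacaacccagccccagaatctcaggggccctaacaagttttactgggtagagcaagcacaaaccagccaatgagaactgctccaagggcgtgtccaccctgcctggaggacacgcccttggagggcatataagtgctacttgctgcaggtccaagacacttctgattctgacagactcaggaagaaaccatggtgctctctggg
Hbb-bs: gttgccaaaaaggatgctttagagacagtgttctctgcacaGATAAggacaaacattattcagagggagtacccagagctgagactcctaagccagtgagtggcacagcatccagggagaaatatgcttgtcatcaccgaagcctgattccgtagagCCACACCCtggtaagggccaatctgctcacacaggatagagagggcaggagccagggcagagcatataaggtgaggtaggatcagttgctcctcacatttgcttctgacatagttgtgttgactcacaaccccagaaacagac
Hbb-bt: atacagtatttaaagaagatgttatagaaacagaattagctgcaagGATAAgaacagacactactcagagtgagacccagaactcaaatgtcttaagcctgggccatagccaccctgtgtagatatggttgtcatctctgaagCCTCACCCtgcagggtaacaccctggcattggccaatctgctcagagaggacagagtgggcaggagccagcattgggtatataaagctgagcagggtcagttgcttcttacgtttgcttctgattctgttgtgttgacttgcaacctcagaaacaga
Alas2: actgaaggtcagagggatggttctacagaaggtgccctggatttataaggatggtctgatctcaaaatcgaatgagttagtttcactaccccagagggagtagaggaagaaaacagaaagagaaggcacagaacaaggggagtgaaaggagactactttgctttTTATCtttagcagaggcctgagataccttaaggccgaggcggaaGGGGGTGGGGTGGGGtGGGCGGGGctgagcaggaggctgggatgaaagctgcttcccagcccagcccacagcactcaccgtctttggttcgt
Each of the 4 windows held GATAA 1 time, in Alas2 on the opposite strand. CCNCNCCC matched 1 time in Hbb-bs, where it began 93 bases before the start, 1 time in Hbb-bt, 107 bases before, and 4 times in overlapping or adjoining positions in Alas2. It had no match in the Hba-a1 window. Of 33 windows listed for 26 of the 38 genes, 18 held GATAA, or 54.5%, against 25.4% of all 32851 windows. CCNCNCCC stood in 20, or 60.6%, against 49.5% of all windows. A match is a description of letters, not a site in use.

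Globin RNA filled most of the Itga6low CD80neg libraries. All haemoglobin genes together made up 70.9% of TPM in its replicate 1 and 50.4% in its replicate 2, 60.7% ± 14.5 (SD, n = 2), against 0.0185% and 0.00621% in Itga6hi CD80pos, 0.0124% ± 0.00869 (SD, n = 2). Hbb-bs (chromosome 7, 103826534 to 103828096, minus strand, GRCm38) stood at 81.0 and 22.4 TPM in Itga6hi CD80pos and at 328205 and 222614 TPM in Itga6low CD80neg. Hba-a2 stood at 73.9 and 30.99 TPM and at 267996 and 194216 TPM. These were the first and second most abundant genes of both Itga6low CD80neg libraries, with no overlap between groups. Hba-a1 stood at 20.4 and 5.997 TPM against 74481 and 53803 TPM, while Hbb-bt stood at 9.21 and 2.77 TPM against 38608 and 33197 TPM. On the log2(TPM + 1) scale the 4 genes differed between groups by 12.19 to 12.59. In bulk RNA, fewer cells of a type and less RNA per cell cannot be told apart, here or for any gene below.

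The split among the 4 globins is uncertain where their messages share sequence. In the GENCODE M21 transcripts, 92.6% of the runs of 31 bases in Hba-a2 also occur in Hba-a1, and 75.4% of those in Hba-a1 occur in Hba-a2. The promoter windows of this pair were identical over 297 bases at an offset of 3. Of the runs in Hbb-bs, 54.4% occur in Hbb-bt, and 59.4% of those in Hbb-bt occur in Hbb-bs. Sums over each pair are less affected by how such reads were split. They are not free of it, since TPM divide reads by transcript length. Summed alpha over summed beta globin was 0.934 and 0.970 in Itga6low CD80neg, and 1.05 and 1.47 in Itga6hi CD80pos. On this measure alpha and beta messages were close to equal in Itga6low CD80neg, and the ratios of the groups did not overlap. The Itga6hi CD80pos ratios rest on only 184.5 and 62.1 TPM of adult globin, so this difference is uncertain. Globins of the embryo were near 0: Hbb-bh1 stood at 0.791 and 0.392 TPM in Itga6low CD80neg, Hbb-y at 0.103 and 0.261 TPM and Hba-x (chosen after its values were seen) at 0.235 and 0 TPM, and all were listed at 0 in Itga6hi CD80pos. Hbq1b and Hbq1a, theta globins, stood at 19.5 and 20.8 TPM and at 9.19 and 16.8 TPM, and were also listed at 0 in Itga6hi CD80pos.

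**Figure D1:**
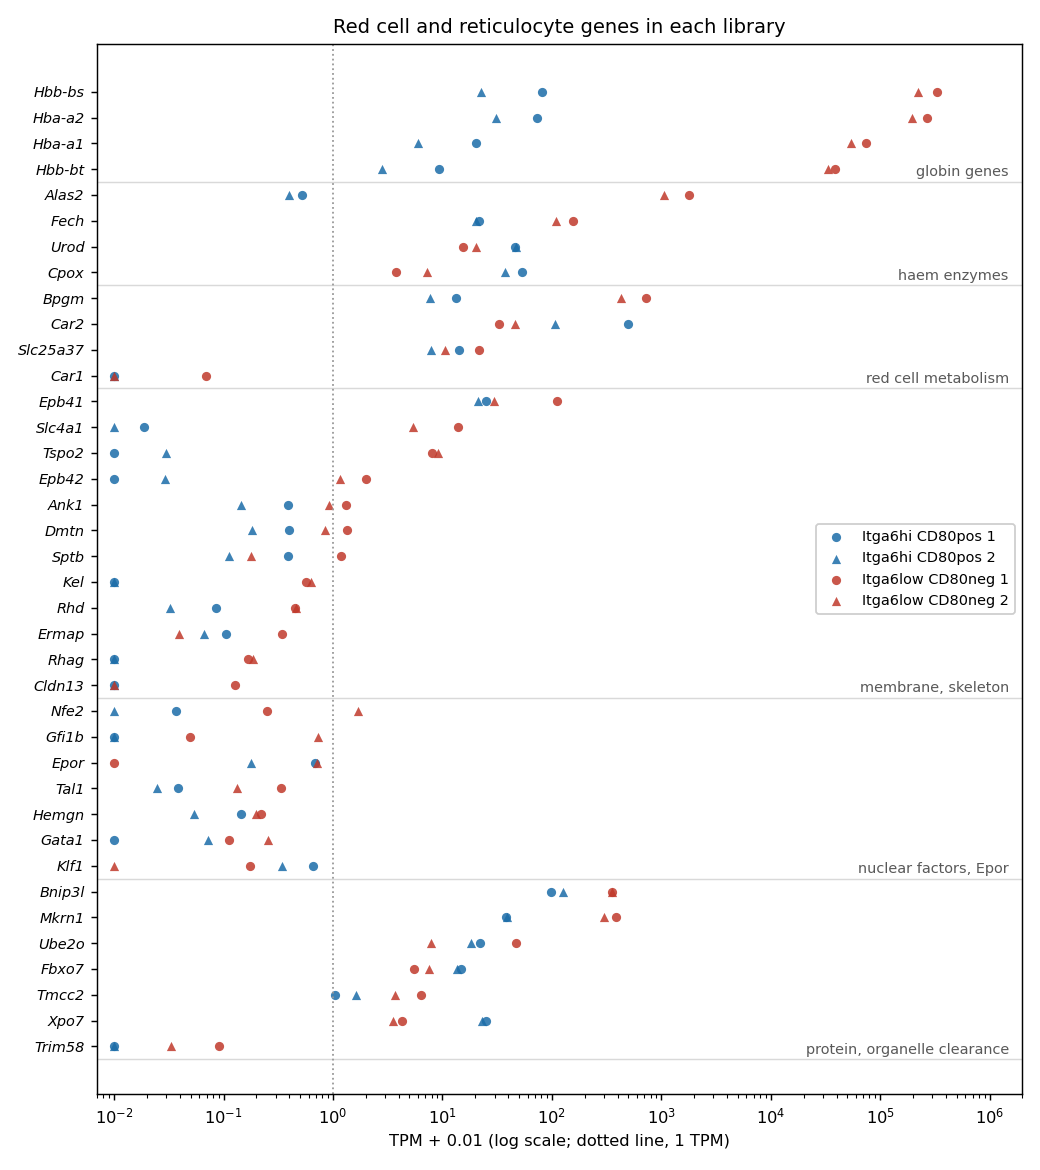
TPM + 0.01 of each of the 38 genes (log axis) in the 4 libraries, grouped by role; blue marks are Itga6hi CD80pos, red marks Itga6low CD80neg, circles replicate 1 and triangles replicate 2. The red marks of the 4 globins and of Alas2 lie at 1049 TPM or more, while no nuclear factor passes 1.69 TPM in any library.

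Among the haem enzymes, the first and last of the pathway were high in Itga6low CD80neg and those between were not. Alas2 (chromosome X, 150547375 to 150570638, plus strand), the erythroid form of the enzyme that starts haem synthesis, stood at 0.511 and 0.390 TPM in Itga6hi CD80pos and at 1781 and 1049 TPM in Itga6low CD80neg. It was the 11th and 77th most abundant gene of the latter libraries. Fech, which inserts iron into the ring as the last step, stood at 21.8 and 20.1 TPM against 157 and 108 TPM. Both genes were higher in each Itga6low CD80neg library than in either of the other group. Urod, a cytosolic enzyme of the middle steps that all nucleated cells use, stood at 46.5 and 47.1 TPM against 15.6 and 20.2 TPM. Cpox, the mitochondrial enzyme that follows it, stood at 53.3 and 37.4 TPM against 3.76 and 7.24 TPM. Urod and Cpox were lower in both Itga6low CD80neg libraries on deposited TPM. Of all 13474 genes that reached 1 TPM in 2 or more libraries, 73.5% were lower and 12.9% higher in both. With haemoglobin genes left out of the TPM total, Urod overlapped between groups and Cpox stayed lower in both.

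Most other genes of haem synthesis were called lower in Itga6low CD80neg on deposited TPM, as were most genes of the table. Calls here and below come from limma, run over all 13474 genes that reached 1 TPM in 2 or more libraries (two-sided, Benjamini-Hochberg adjusted p below 0.05), which called 9.48% of them higher and 57.0% lower in Itga6low CD80neg. Of 11 tested genes of this list, it called 8 lower and 0 higher, with 9 and 0 at an unadjusted p under 0.05. They had a median log2 difference of -1.65 against -1.27 over all genes. With haemoglobin genes left out of the TPM total, limma called 0 of the 11 in either direction, and their median was -0.38 against -0.08 over all genes. Alas1, the form of the first enzyme used in other tissues, stood at 93.0 and 64.9 TPM against 23.6 and 21.5 TPM. Glrx5, an iron-sulfur carrier, stood at 93.0 and 86.2 TPM against 36.2 and 38.8 TPM. Slc25a37, mitoferrin 1, which brings iron into mitochondria for haem, stood at 14.3 and 7.89 TPM against 21.7 and 10.5 TPM. Its groups overlapped.

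Bpgm (chromosome 6, 34476207 to 34505613, plus strand), the enzyme that makes 2,3-bisphosphoglycerate and so tunes oxygen release, was the most abundant metabolic member in Itga6low CD80neg. It stood at 13.4 and 7.69 TPM in Itga6hi CD80pos and at 729.6 and 427 TPM in Itga6low CD80neg, a difference of 5.64 on the log2(TPM + 1) scale. Carbonic anhydrases, which red cells use to carry carbon dioxide, did not go with it. Car2, which epithelia make too, stood at 497 and 108 TPM against 32.7 and 46.4 TPM, the lower values being those of Itga6low CD80neg. Car1 was listed at 0 in 3 libraries and stood at 0.0596 TPM in Itga6low CD80neg replicate 1.

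Membrane genes were mostly higher in Itga6low CD80neg but at low levels on deposited TPM. Of 12, 9 were higher in both Itga6low CD80neg libraries, and 4 reached 1 TPM in both. Over all 30663 genes above 0 in at least 1 library, 14.5% were higher in both. With haemoglobin left out of the total, 7 of the 12 reached 1 TPM in at least 2 libraries. Slc4a1, band 3, the anion exchanger that anchors the red cell skeleton, stood at 0.00867 and 0 TPM in Itga6hi CD80pos and at 14.0 and 5.33 TPM in Itga6low CD80neg. Tspo2, an erythroid relative of the translocator protein Tspo, stood at 0 and 0.0196 TPM against 8.06 and 9.11 TPM. Both genes were close to 0 in one group and several TPM in the other. Epb41, protein 4.1, which other cell types make too, stood at 25.1 and 20.9 TPM against 110.5 and 29.4 TPM. Its Itga6low CD80neg libraries differed from each other by more than the lower of them differed from the other group. Epb42, protein 4.2, stood at 0 and 0.0190 TPM against 1.98 and 1.14 TPM.

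The other membrane and skeleton members stood at or near 1 TPM or below in Itga6low CD80neg on deposited TPM. Ank1 (ankyrin) stood at 1.30 and 0.914 TPM there, Dmtn (dematin) at 1.34 and 0.844 TPM and Sptb (beta spectrin) at 1.18 and 0.169 TPM. The blood group genes Kel, Rhd and Rhag stood at 0.554 and 0.615 TPM, at 0.443 and 0.449 TPM and at 0.157 and 0.176 TPM. Kel and Rhag were listed at 0 in both Itga6hi CD80pos libraries. Ermap, an erythroid membrane protein, and Cldn13, a claudin, overlapped between groups, Ermap at 0.330 and 0.0290 TPM and Cldn13 at 0.118 and 0 TPM in Itga6low CD80neg.

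Among membrane genes outside the 38, limma called 5 of 12 tested higher and 5 lower in Itga6low CD80neg, with a median log2 difference of 0.13. With haemoglobin left out it called 6 of 15 higher and 0 lower, with a median of 1.55, beside 12.1%, 7.48% and -0.08 over all 14572 genes. Aqp1, Slc43a1, Cd59a and Gypc, named after their values were seen, were among the higher calls on deposited TPM. The 4 most abundant genes of the list, Stom, Add1, Mpp1 and Cd47, are not special to red cells. Stom stood at 219.5 and 251 TPM against 21.4 and 60.7 TPM, while Cd47 stood at 21.8 and 25.7 TPM against 24.4 and 29.9 TPM.

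The transcription factors and nuclear proteins of red cell precursors, and the receptor Epor, stood at 1.69 TPM or less in all 4 libraries on deposited TPM. None of the 7 members reached 1 TPM in 2 libraries, and their sum was 1.52 and 0.623 TPM in Itga6hi CD80pos and 1.08 and 3.67 TPM in Itga6low CD80neg. Gata1, the main erythroid GATA factor, stood at 0 and 0.0621 TPM and at 0.102 and 0.247 TPM. Klf1, the factor of the CACCC box of beta globin, stood at 0.650 and 0.332 TPM and at 0.164 and 0 TPM, so it was not higher where globin was. Tal1, a partner of Gata1, stood at 0.0281 and 0.0147 TPM and at 0.324 and 0.123 TPM. Epor, the erythropoietin receptor, stood at 0.678 and 0.170 TPM and at 0 and 0.707 TPM. Hemgn, a nuclear protein of erythroblasts, stood at 0.133 and 0.0442 TPM and at 0.212 and 0.187 TPM.

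Nfe2 and Gfi1b, which act in precursors of red cells and platelets, were highest in Itga6low CD80neg replicate 2. Nfe2 stood at 0.238 and 1.69 TPM in Itga6low CD80neg and Gfi1b at 0.0393 and 0.718 TPM, against at most 0.0268 TPM in Itga6hi CD80pos. Of 9 markers of mast cells, a lineage that also uses Gata2 and Gfi1b, some were highest in that library too. The sum of the list was 0.229 and 0.759 TPM in Itga6hi CD80pos and 3.30 and 55.4 TPM in Itga6low CD80neg, and 1 and 5 of its genes reached 1 TPM in the latter libraries. Hdc, histidine decarboxylase, stood at 2.05 and 45.2 TPM there, Fcer1a at 0 and 3.35 TPM, Ms4a2 at 0.0265 and 3.07 TPM and Cpa3 at 0 and 2.32 TPM. The mast cell proteases Mcpt4, Cma1 and Tpsb2 (these and Tpsab1 chosen after their values were seen) were not higher in replicate 2, at 0.193 and 0 TPM, at 0.1005 and 0.0902 TPM and at 0.166 and 0.125 TPM, and Tpsab1 was listed at 0 in all 4 libraries. Platelet markers summed to 7.27 and 8.95 TPM against 14.95 and 11.3 TPM, with Gp9 and Treml1 (chosen after their values were seen) at 0 in all 4 libraries. The part of these cells in the Nfe2 and Gfi1b values was not tested.

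Of the 7 members grouped here under clearance of proteins and organelles, 3 were clearly more abundant in Itga6low CD80neg. The group name is a label of the list, not a function shown for each gene. Bnip3l (chromosome 14, 66985239 to 67008877, minus strand), the receptor through which reticulocytes remove mitochondria, stood at 97.8 and 126 TPM against 356 and 358 TPM. In GENCODE M21, 23.7% of its runs of 31 bases also occur in the pseudogene Bnip3l-ps, so its level is less certain. Mkrn1 (chromosome 6, 39397804 to 39420462, minus strand), a ubiquitin ligase, stood at 38.5 and 38.7 TPM against 389.9 and 301 TPM. Tmcc2, a transmembrane and coiled-coil protein, stood at 1.03 and 1.61 TPM against 6.35 and 3.68 TPM. None of these 3 overlapped between groups.

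The remaining genes of this group did not share that pattern on deposited TPM. On that scale 73.5% of all tested genes were lower and 12.9% higher in both Itga6low CD80neg libraries. Ube2o, the ubiquitin-conjugating enzyme that remodels the reticulocyte proteome, stood at 22.1 and 18.3 TPM against 47.5 and 7.85 TPM, so the other group lay between its Itga6low CD80neg libraries. Fbxo7, a substrate receptor of a ubiquitin ligase, stood at 14.9 and 13.5 TPM against 5.53 and 7.56 TPM. With haemoglobin left out of the total it stood at 14.9 and 13.5 TPM against 19.0 and 15.2 TPM. It was then higher in both Itga6low CD80neg libraries, as were 28.8% of all tested genes. Xpo7, a nuclear exporter that acts as the erythroblast nucleus condenses, stood at 25.2 and 22.9 TPM against 4.22 and 3.52 TPM. Trim58, a ubiquitin ligase of late erythroblasts, was listed at 0 in both Itga6hi CD80pos libraries and stood at 0.0802 and 0.0234 TPM in Itga6low CD80neg.

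Of 20 tested further genes known from reticulocytes and red cells, limma called 7 higher and 4 lower in Itga6low CD80neg, with a median log2 difference of -0.36. With haemoglobin left out it called 8 higher and 0 lower, with a median of 0.99, beside 12.1%, 7.48% and -0.08 over all 14572 genes. Ube2l6, a ubiquitin-conjugating enzyme, stood at 2.56 and 5.96 TPM against 637 and 329.9 TPM. Isca1, Tent5c, Gabarapl2, Ypel4 and Trim10, named after their values were seen, were also among the higher calls on deposited TPM. The broadly made genes Ftl1, Gpx1 and Fth1 were the most abundant of the list. Ftl1, a ferritin chain, stood at 1433 and 749.6 TPM against 1637 and 1578 TPM.

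**Figure D2:**
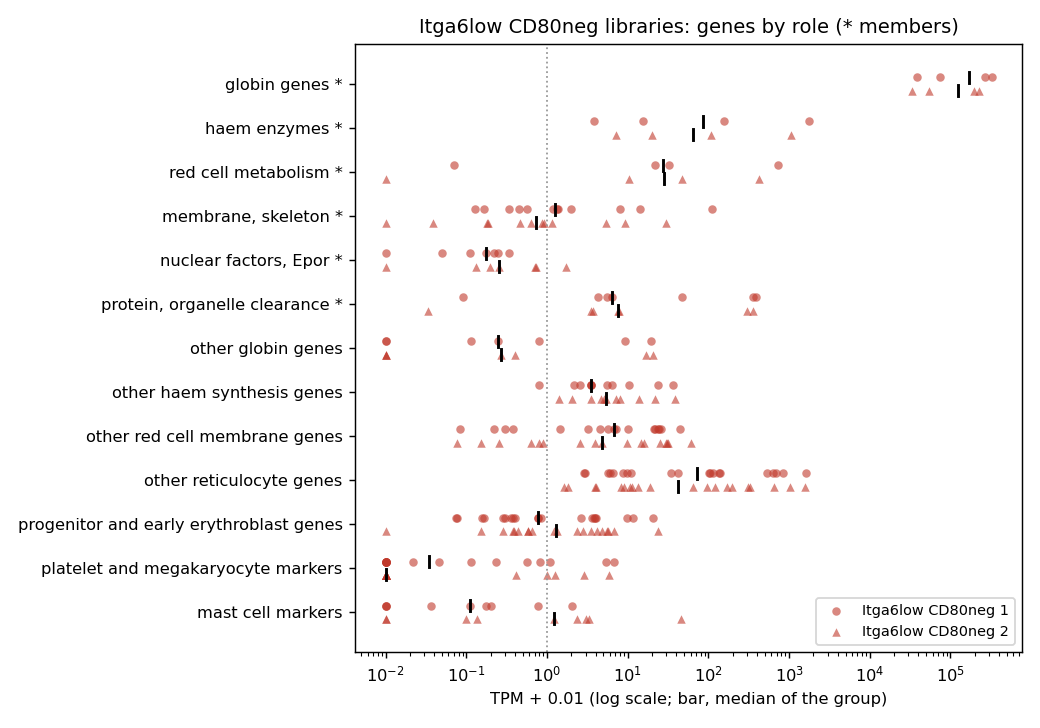
TPM + 0.01 (log axis) of single genes in the 2 Itga6low CD80neg libraries by role, with the median of each group as a bar; an asterisk marks groups of the 38 genes. Globins lie highest, the nuclear factors and Epor lie almost wholly under 1 TPM, and other reticulocyte genes all reach 1 TPM in both libraries.

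Among tested genes of progenitors and early erythroblasts, calls on deposited TPM lay close to the background of all genes. Of 12 tested, limma called 7 lower and 1 higher in Itga6low CD80neg, with a median log2 difference of -1.38, beside 57.0%, 9.48% and -1.27 over all genes. With haemoglobin left out it called 2 of 15 lower and 3 higher, with a median of 0.20, beside 7.48%, 12.1% and -0.08 over all 14572 genes. Of all 20 genes of the list, 10 were lower and 8 higher in both Itga6low CD80neg libraries on deposited TPM. Over all 30663 genes above 0 in at least 1 library, 43.1% were lower and 14.5% higher in this sense. Tfrc, the transferrin receptor through which erythroblasts take up iron (chosen after its values were seen), stood at 28.3 and 22.7 TPM in Itga6hi CD80pos and at 0.770 and 2.79 TPM in Itga6low CD80neg. Many cell types make Tfrc. Kit and Gata2, also chosen after their values were seen, are among the 8 that were higher in both. Kit stood at 0.117 and 0.403 TPM in Itga6hi CD80pos and at 0.758 and 1.22 TPM in Itga6low CD80neg. Gata2 stood at 0.0585 and 0.331 TPM against 0.345 and 5.47 TPM. Ldb1, a partner of Lmo2 and Tal1, stood at 81.1 and 79.1 TPM against 20.3 and 23.7 TPM. Lmo2 was the higher call, at 0.294 and 0.317 TPM against 11.6 and 6.78 TPM, and is also made outside the erythroid line. Cell division genes were called lower in 8 of 8 tested, and in 7 of 8 with haemoglobin left out, beside 57.0% and 7.48% of all genes. Pcna stood at 187 and 168 TPM against 23.5 and 52.4 TPM. Keratinocyte markers were called lower in 11 of 11, and in 7 of 11 with haemoglobin left out. The part of keratinocytes in the cell division values was not tested. On deposited TPM, 9 of the 38 genes thus reached 100 TPM in both Itga6low CD80neg libraries. They were the 4 globins, Alas2, Fech, Bpgm, Bnip3l and Mkrn1, while the nuclear factors and Epor stood at 1.69 TPM or less there.

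Of the 38 genes, 21 passed the filter on low values. In Itga6low CD80neg, limma called 13 of these higher and 5 lower, where it called 9.48% and 57.0% of all tested genes. The higher calls were the 4 globins, Alas2, Fech, Bpgm, Slc4a1, Epb42, Tspo2, Bnip3l, Mkrn1 and Tmcc2, and the lower ones Urod, Cpox, Car2, Fbxo7 and Xpo7. Slc25a37, Epb41 and Ube2o had no call. Since the list was chosen on these libraries, and genes high in 1 group alone pass the filter through it, nothing is read from these counts. Without Itga6hi CD80pos replicate 1, limma called 0 genes and 0 members in either direction, although 1033 genes and 11 members were higher and 4442 and 2 lower at an unadjusted p under 0.05. Without its replicate 2 it called 2 members higher and 0 lower. Before adjustment, 12 were higher and 3 lower at p under 0.05. In both cases the spread rests on the 2 Itga6low CD80neg libraries.

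Without a filter, 25 of the 38 genes were higher in both Itga6low CD80neg libraries than in either of the other group, 6 were lower and 7 overlapped. Of all 30663 genes above 0 in at least 1 library, 14.5% were higher and 43.1% lower in this sense. Among the 21 that passed the filter these were 14, 5 and 2, where 12.9% of all tested genes were higher without overlap and 73.5% lower. Among the 17 under the filter they were 11, 1 and 5, where 15.8% of 17189 such genes were higher and 19.2% lower. The highest value of any of the 17 genes under the filter was the 1.69 TPM of Nfe2. At the filter's edge, Epb42 lay just inside with a second-highest value of 1.14 TPM and Ank1 just outside with 0.914 TPM.

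Because haemoglobin took up much of the Itga6low CD80neg total, every other gene there was scaled down. The median log2 difference of all tested genes was -1.27 on deposited TPM. With haemoglobin genes left out of the total, other values in Itga6low CD80neg became 3.44 and 2.02 times as large, and the median of all genes moved to -0.08. Alas2 then stood at 6127 and 2115 TPM, Bpgm at 2509.8 and 862 TPM and Mkrn1 at 1341 and 607 TPM. Among membrane genes, Slc4a1 stood at 48.1 and 10.7 TPM, Ank1 at 4.48 and 1.84 TPM and Sptb at 4.07 and 0.340 TPM. Fbxo7 turned to 19.0 and 15.2 TPM against 14.9 and 13.5 TPM, higher in both Itga6low CD80neg libraries. Urod, at 53.5 and 40.7 TPM against 46.5 and 47.1 TPM, and Car2, at 112 and 93.6 TPM against 498 and 108 TPM, then overlapped. Cpox, at 12.9 and 14.6 TPM against 53.3 and 37.4 TPM, and Xpo7 stayed lower in both. Gata1 stood at 0.352 and 0.498 TPM and Klf1 at 0.565 and 0 TPM on this scale, still under 1 TPM, as was Hemgn. Nfe2, at 0.820 and 3.41 TPM, Gfi1b, at 0.135 and 1.45 TPM, and Epor, at 0 and 1.42 TPM, passed 1 TPM in replicate 2. Tal1, at 1.12 and 0.249 TPM, passed it in replicate 1. The sum of all 7 nuclear factors and Epor was 3.72 and 7.40 TPM. Of 17 filtered genes other than globins, 12 were then higher without overlap, 2 lower and 3 overlapped, where 28.8% of all genes were higher and 38.3% lower. Limma on these values called 10 members higher and 1 lower of 20 tested, where it called 12.1% and 7.48% of all 14572 genes.

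**Figure D3:**
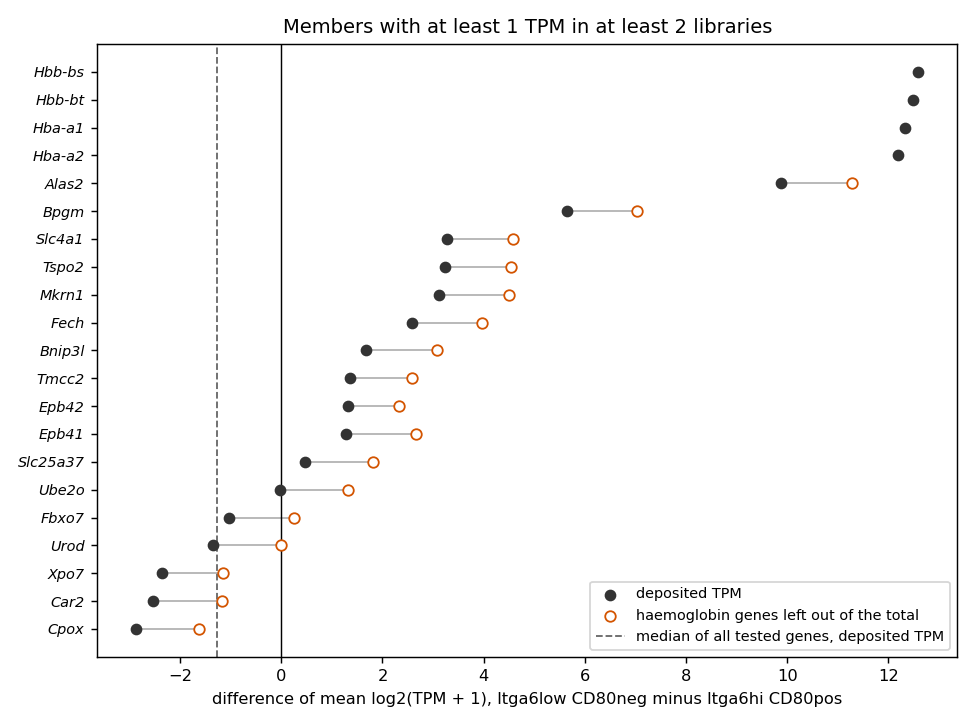
Difference of mean log2(TPM + 1), Itga6low CD80neg minus Itga6hi CD80pos, for the 21 genes that passed the filter, on deposited TPM (filled) and with haemoglobin genes left out of the total (open, not drawn for globins). Filled points run from -2.87 for Cpox to 12.59 for Hbb-bs, and the open points of Fbxo7 and Ube2o lie above 0 where the filled ones lie below.

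The Itga6low CD80neg libraries differed from each other in haemoglobin, and the members did not all follow it. Summed adult globin was 1.41 times as high in replicate 1 as in replicate 2, a log2 ratio of 0.49, while the median of all tested genes was -0.26. Of the 21 genes, 15 were higher in replicate 1, where 35.7% of all tested genes were. The log2 ratios of Hbb-bs, Fech, Epb42, Hba-a1 and Hba-a2 (0.56, 0.53, 0.48, 0.47 and 0.46) lay within 0.1 of the globin sum. Alas2 and Bpgm had 0.76 and 0.77. Ube2o, Epb41 and Slc4a1 differed by far more, with 2.46, 1.87 and 1.24. Bnip3l had -0.01, and Urod, Fbxo7, Car2 and Cpox had -0.36 to -0.79, on the other side of 0 from globin. Fibroblast markers were also higher in replicate 1, with a median of 0.69, and keratinocyte markers lower, with a median of -1.14. Their part in the ratios of Ube2o and Epb41 was not tested. With 2 libraries these ratios have no test.

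**Figure D4:**
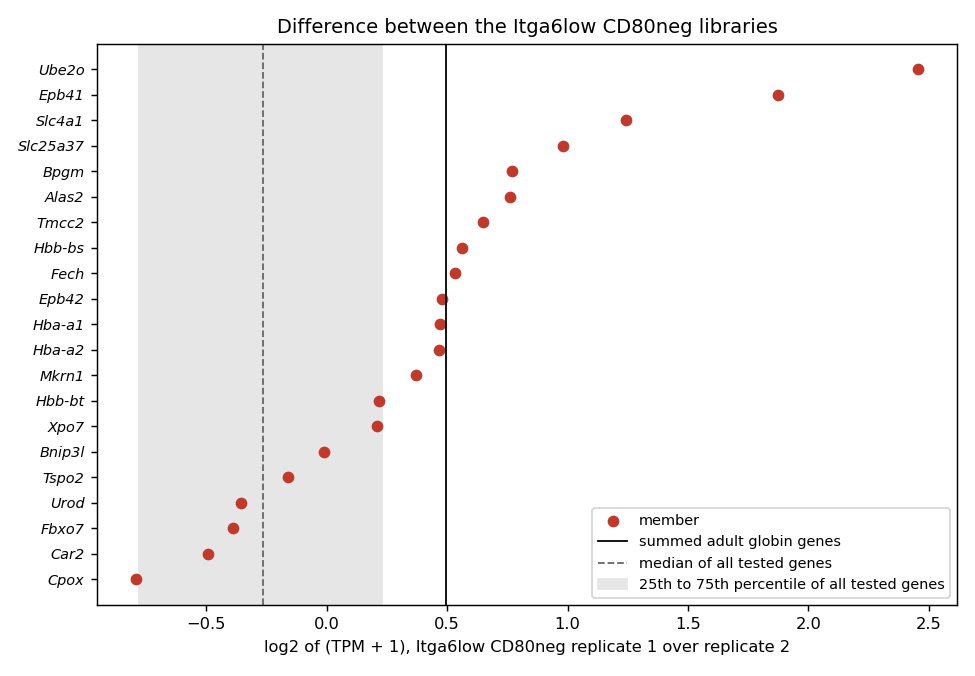
Log2 of (TPM + 1) in Itga6low CD80neg replicate 1 over replicate 2 for the 21 genes that passed the filter, with the summed adult globins (solid line, 0.49), the median of all tested genes (dashed line, -0.26) and their 25th to 75th percentile (grey). Ube2o and Epb41 lie farthest to the right and Cpox farthest to the left.

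Adult globin genes also gave a trace in Itga6hi CD80pos. Hbb-bs made up 43.9% and 36.0% of adult globin TPM there and 46.3% and 44.2% in Itga6low CD80neg, Hba-a2 40.0% and 49.9% against 37.8% and 38.5%, and Hba-a1 11.1% and 9.66% against 10.5% and 10.7%. The share of Hbb-bs was lower and that of Hba-a2 higher in both Itga6hi CD80pos libraries, and that of Hba-a1 overlapped. The split within each pair is uncertain. Per 1000 TPM of adult globin, Alas2 stood at 2.77 and 6.28 TPM in Itga6hi CD80pos and at 2.51 and 2.08 TPM in Itga6low CD80neg. On that scale its groups differed by a few times at most, while globin itself differed 4918 times. Bpgm, at 72.6 and 124 TPM per 1000 against 1.03 and 0.848 TPM, and Mkrn1, at 209 and 624 TPM against 0.550 and 0.598 TPM, were far higher relative to globin in Itga6hi CD80pos. Values under 1 TPM are imprecise where depth is unknown, so these ratios are given without an error.

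Markers of cells that could travel with red cells gave the following. Over all tested genes limma called 9.48% higher and 57.0% lower in Itga6low CD80neg, and 12.1% and 7.48% with haemoglobin left out. Of 3 tested neutrophil markers limma called 0 higher and 0 lower, also at an unadjusted p under 0.05, with S100a9 standing at 610.5 and 409.5 TPM against 363 and 1588 TPM. Retnlg stood at 0 in both Itga6hi CD80pos libraries and at 0.340 and 9.75 TPM in Itga6low CD80neg, Cxcr2 at 1.27 and 1.90 TPM against 1.15 and 5.58 TPM. Of genes chosen after their values were seen, Csf3r stood at 0.0129 and 0.0201 TPM against 1.66 and 0.924 TPM, while Camp, Ltf, Ngp, Mpo and Elane stood at 0.291 TPM or less in all 4 libraries. Of the 12 neutrophil markers, 3 were higher in both Itga6low CD80neg libraries, 0 lower and 9 overlapped. Over all 30663 genes above 0 in at least 1 library, 14.5% were higher and 43.1% lower in both. Of 6 tested genes with which macrophages take up or break down haem and red cells, 3 were called higher and 1 lower. Lrp1, also a fibroblast receptor, stood at 19.3 and 21.1 TPM against 269.5 and 86.3 TPM, while Hmox1, haem oxygenase 1, stood at 73.7 and 24.2 TPM against 18.7 and 24.4 TPM. Of 2 tested endothelial markers 0 were called higher and 1 lower, the same counts as at an unadjusted p under 0.05, with Pecam1 standing at 2.34 and 5.84 TPM against 0.253 and 2.03 TPM. Of 4 platelet markers 1 was called higher and 2 lower, and the 1 tested mast cell marker, Hdc, was higher only at an unadjusted p under 0.05. All 8 fibroblast markers were called higher and all 11 keratinocyte markers lower. With haemoglobin left out, limma called higher 1 of 5 neutrophil genes and 3 of 7 genes of haem and red cell handling. It called higher 0 of 3 endothelial, 2 of 4 platelet, 1 of 2 mast cell and 8 of 8 fibroblast genes. It then called 7 of 11 keratinocyte genes lower and 0 of the other lists of this paragraph.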

How the data were processed

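The members and the gene lists were chosen with earlier results of these data known. The deposited values are TPM per gene, which the authors made with kallisto 0.44.0 and genome build mm10, per the submitters' processing notes; the annotation, the summing to genes and any filter are not given in the sources used here. Each column sums to 1000000, and the depth is unknown. Members were matched by symbol and placed on GENCODE M21 (GRCm38).

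Genes that reached 1 TPM in 2 or more of 4 libraries were compared on log2(TPM + 1) with limma 3.58.1 in R 4.3.3 (lmFit, eBayes with a trend, two-sided, Benjamini-Hochberg), which was tested on simulated data first. The fit had 2 residual and 3.33 prior degrees of freedom. All members are accounted for. From each other list the text takes among the 4 genes with the highest mean TPM in Itga6low CD80neg, and says where a gene was chosen after its values were seen; some genes of these lists are not reported here. Alternatives were other pseudocounts and filters, median-of-ratios scaling over 9608 genes, haemoglobin left out of the total, a replicate block, and each library left out.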

Additional observations from a re-analysis of the deposited data

How the results depend on the processing

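The share of TPM held by haemoglobin in Itga6low CD80neg, 60.7%, was 61.3% without mitochondrially encoded genes and 50.4% to 70.9% with a library left out. Main counts were 1277 genes higher and 7686 lower in Itga6low CD80neg, and 13 members higher and 5 lower. With no filter on low values there were 4564 genes and 3 members lower, and with a mean of at least 5 TPM 613 genes higher. Median-of-ratios scaling gave 1829 genes higher and 839 lower and 13 members higher and 1 lower, so 68.6% of calls were higher against 14.2% on deposited TPM. Leaving haemoglobin out of the total gave 1765 and 1090 genes (61.8% higher), and 10 members higher and 1 lower. With a library left out, genes ran from 0 to 1237 higher and from 0 to 8227 lower, and members from 0 to 15 higher and from 0 to 5 lower. The lowest of these came without Itga6hi CD80pos replicate 1; without replicate 2 there were 174 genes higher and 353 lower and 2 members higher and 0 lower.

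Urod turned to 0.17 (log2, Itga6low CD80neg minus Itga6hi CD80pos) under median-of-ratios scaling, and Fbxo7 to 0.40 there and to 0.25 without haemoglobin. Ube2o turned to 1.20 without Itga6low CD80neg replicate 2 and stood at -1.26 without its replicate 1. The turns of Urod and Fbxo7 came with a change of scale for all genes, and those of Ube2o with the Itga6low CD80neg library that was kept. Why Ube2o differed between these libraries was not tested. With a replicate block, 14 members were higher and 5 lower, Epb41 being the added call, with 1452 and 8044 genes. Same-numbered libraries deviated with a correlation of 0.11 across tested genes; with 2 pairs and no label of a shared source they share only a number.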
